A study of Saccharomyces cerevisiae with 12 samples.

Results

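The effect of the hal4hal5 double mutation on transcript levels was compared between YPD at pH 6.0 and YPD at pH 4.5 in the W303 background of Saccharomyces cerevisiae, on 8 of the 12 two-colour arrays of the series. The first set was 4 arrays of W303 hal4hal5 cells against W303 wild-type cells in YPD at pH 6.0. The second set was 4 arrays of the same 2 genotypes and background in YPD at pH 4.5. All cultures were grown at 28 °C in this rich glucose medium and harvested in log phase at an absorbance at 660 nm of 1.0, per the labels. Each array held mutant and wild-type cDNA in opposite dyes, so its value is the mutant effect at 1 pH, and the quantity examined is the difference of the mean effects, pH 6.0 minus pH 4.5. Of 5994 open reading frames (ORFs), 4840 had the 3 values needed at each pH and were tested. Another 661 fell short at pH 6.0 alone, 16 at pH 4.5 alone and 477 at both. The 4 arrays of a set are described as biological replicates, but no source used here says whether 1 wild-type culture served several arrays. A pH difference of the effect can come from the mutant, the wild type or both, which these ratios cannot tell apart.

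HAL4 (SAT4) and HAL5 encode related protein kinases that stabilise the potassium transporters Trk1 and Trk2 at the plasma membrane. Potassium uptake is driven by the membrane potential that the proton pump Pma1 builds, so transport and medium acidity are linked. In yeast, stress turns on genes read by the factors Msn2 and Msn4 and lowers those for making ribosomes, and purine synthesis and phosphate acquisition each have their own dedicated regulators.

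The values are read as log2 ratios of the mutant over the wild type, although no source used here names the log base, which was inferred from their range. The ratio was taken as Cy5 over Cy3 because that makes the mean ratio of each deleted gene negative at both pH values. These ratios were small, and some single arrays were positive. SAT4 had log2 ratios of -0.15, 0.62, -1.74 and -0.57 on the pH 6.0 arrays, against -0.09, -0.18, -0.23 and -0.18 on the pH 4.5 arrays. HAL5 had 0.19, -0.12 and -0.15 on the 3 pH 6.0 arrays that measured it, against 0.42, -0.27, -0.21 and -0.32 at pH 4.5. In the limma test of each set alone, SAT4 was called lower at pH 4.5 (adjusted p = 0.0275) but not at pH 6.0 (0.556). HAL5 was called at neither pH (adjusted p = 0.938 at pH 6.0 and 0.483 at pH 4.5). The direction therefore rests on weak values. If the direction were the other way, every sign below would turn.

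The pH 6.0 arrays held 4418 to 5652 values and were less alike than the pH 4.5 arrays, which held 5429 to 5659. Correlations across ORFs between 2 arrays were -0.09 to 0.58 at pH 6.0 and 0.88 to 0.95 at pH 4.5. The median standard deviation (SD) of an ORF between arrays was 0.26 at pH 6.0 and 0.13 at pH 4.5. Replicate 3 at pH 6.0 stood apart, with the fewest values and a mean correlation of 0.19 with the others of its set. The mutant was in Cy5 on 2 of 4 pH 6.0 arrays and 3 of 4 pH 4.5 arrays.

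The mutant effect differed between the pH values for 830 of the 4840 ORFs, or 17.1%, by limma at a Benjamini-Hochberg adjusted p below 0.05. It was higher at pH 6.0 for 353 (7.29%) and lower for 477 (9.86%). In 809 of the 830 the pH 6.0 and pH 4.5 values did not overlap, and the pH 6.0 arrays lay wholly above in 11.4% of all tested ORFs and wholly below in 14.9%. The test shares 1 spread between the sets although theirs are unequal, which makes its p-values too small for some ORFs. When each pH was given its own spread, a test added after the data were seen, 313 of the 830 were called and no other ORF, 112 higher and 201 lower. Without replicate 3 at pH 6.0, 1304 of 4426 ORFs were called, 643 higher and 661 lower, of which 783 were among the 830. Counts below are of the shared-spread limma test unless the own spread is named. The list counts stand beside 7.29% higher and 9.86% lower over all tested ORFs, or 112 and 201 of 4840 with own spread. The lists and their members were chosen with earlier results of these data known. An excess of a list over those shares may partly come from that choice. Where a list had 0 calls in 1 direction, the count in that direction at an unadjusted p below 0.05 was 0 for the general stress, trehalose and glycogen, purine, phosphate and cytosolic ribosome lists. It was 1 for the chaperone, hexose transport, mitochondrial ribosome and amino acid lists, 2 for sterol synthesis and 4 for nitrogen-repressed genes.

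Called differences were sorted by the signs and sizes of their 2 mean effects. The calls rest on the same 2 means, and a large difference favours opposite signs. The shares over all tested ORFs are therefore no test of these kinds. Among the 830, 403 (48.6%) had the same sign at both pH values and a smaller size at pH 6.0. Opposite signs were seen in 385 (46.4%), and the same sign with a larger size at pH 6.0 in 42 (5.06%). Over all 4840 the numbers were 2349 (48.5%), 1529 (31.6%) and 962 (19.9%), so the share with a smaller effect was that of all tested ORFs. Across the 3847 ORFs with all 8 values, the slope of the pH 6.0 mean effect on the pH 4.5 mean effect was 0.39 (r = 0.62, across ORFs of shared arrays), and single pH 6.0 arrays gave slopes of 0.30 to 0.45. Each pH 4.5 array on the mean of the other 3 gave slopes of 0.89 to 1.03. A list with large effects at pH 4.5 thus had more room for a difference than most ORFs. Whether any list departed from the slope of 0.39 was not tested. Tested within its own 4 arrays, the mutant effect was called for 1705 higher and 1658 lower ORFs at pH 4.5 (35.2% and 34.3%), and for 93 and 70 at pH 6.0 (1.92% and 1.45%). These counts do not measure effect size alone. The pH 6.0 arrays spread more (median SD 0.26 against 0.13), so an effect of equal size is called less often there. Of the 385 ORFs with opposite signs, 348 were called at pH 4.5, 10 at pH 6.0 and 6 at both. In 13 of them the mean was over 0.5 in size at both pH values, so for most the sign at 1 pH is uncertain.

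**Figure D1:**
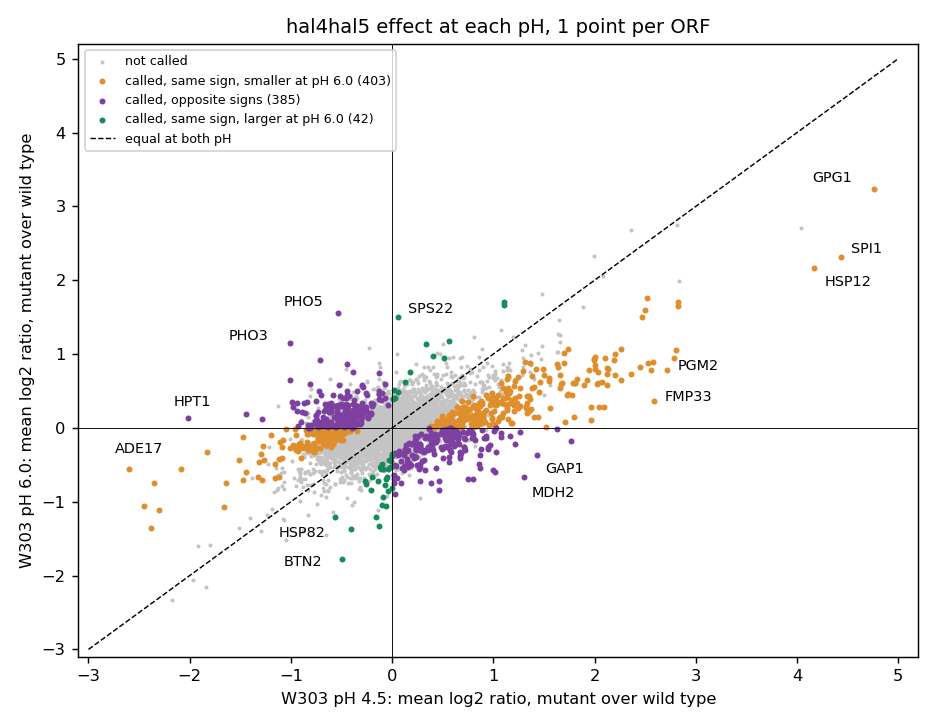
Mean log2 ratio of the mutant over the wild type at pH 6.0 (vertical) against pH 4.5 (horizontal), with 1 point for each of 4840 tested ORFs and colour for the 830 called differences. Most coloured points lie nearer to 0 on the vertical than on the horizontal axis, and 385 lie in the quadrants of opposite sign.

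General stress genes, which rose in the mutant at pH 4.5, had lower effects at pH 6.0. Of 41 tested genes of the general stress list, 26 had a called lower effect and 0 a higher one (21 lower with own spread), against 9.86% of all tested ORFs lower. Their median effect was 0.29 at pH 6.0 and 1.29 at pH 4.5, and the median difference was -0.84, against -0.02 over all ORFs. Array medians were 0.16 to 0.72 at pH 6.0 and 1.04 to 1.45 at pH 4.5, so the sets did not overlap. Without replicate 3 at pH 6.0 the list again had 26 lower and 0 higher. The median difference was -0.945 between arrays with the mutant in Cy5 and -0.44 between those in Cy3, where pH 4.5 had 1 array. A dye term also gave 26 lower and 0 higher. With arrays scaled to 1 spread 16 were lower and 0 higher, and the median difference was -0.57.

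HSP12, which encodes a small membrane-associated stress protein, had log2 ratios of 2.73, 2.38, 2.04 and 1.495 on the pH 6.0 arrays, against 3.97, 4.02, 4.39 and 4.29 on the pH 4.5 arrays. It rose in the mutant at both pH values, and every pH 6.0 value was below every pH 4.5 value (difference -2.01, SE 0.24, limma adjusted p = 0.00118). SPI1, a cell wall protein gene of the weak acid response, had 3.18, 1.57, 2.42 and 2.09 at pH 6.0, against 5.02, 4.07, 4.18 and 4.45 at pH 4.5 (difference -2.12, SE 0.33, limma adjusted p = 0.0036). It does not stand for the weak acid response list, where 1 of 7 tested genes was called lower and 0 higher. In that list 1 was higher at an unadjusted limma p below 0.05. The list medians were 1.14 at pH 6.0 and 0.51 at pH 4.5, and 4 of the 7 differences were positive. GPG1, which had the highest mean of the tested genes at pH 4.5, averaged 3.23 ± 0.18 at pH 6.0 and 4.76 ± 0.53 at pH 4.5 (SD, n = 4 each). It was picked after its values were seen. With arrays scaled to 1 spread these 3 lost their calls, at limma adjusted p of 0.152 for HSP12, 0.23 for SPI1 and 0.73 for GPG1.

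Other stress genes were near 0 at pH 6.0. HSP104, the disaggregase that rescues aggregated protein, had -0.01, -0.33, 0.27 and 0.12 at pH 6.0, against 1.45, 1.45, 1.44 and 1.75 at pH 4.5. RGI1, a gene of respiratory growth, had 0.06, -0.28, 0.01 and -0.47 at pH 6.0, against 2.02, 1.71, 1.54 and 1.81 at pH 4.5. Neither gene was called at pH 6.0 in the test of its own 4 arrays, and both rose at pH 4.5. TFS1, which encodes an inhibitor of carboxypeptidase Y, averaged 0.11 ± 0.17 at pH 6.0 and 1.97 ± 0.25 at pH 4.5, and GAD1, for glutamate decarboxylase, 0.29 ± 0.11 and 2.09 ± 0.21 (SD, n = 4 each). FMP33, a mitochondrial protein gene, had the largest lower difference (-2.22, SE 0.24, limma adjusted p = 0.00106), from values of 0.85, 0.03 and 0.23 on 3 pH 6.0 arrays, against 2.99, 2.30, 2.36 and 2.70 at pH 4.5.

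A pair of stress genes with large effects showed no called difference. YGP1, for a secreted glycoprotein, averaged 2.74 ± 0.78 at pH 6.0 and 2.82 ± 0.22 at pH 4.5 (SD, n = 4 each), with a 95% interval of the difference of -0.84 to 0.69. YRO2, a membrane protein gene, averaged 2.68 ± 0.27 at pH 6.0 and 2.36 ± 0.09 at pH 4.5 (SD, n = 4 each), with an interval of -0.00 to 0.64. Both rose at each pH, and both were picked after their values were seen. MSN2 and MSN4, the genes of the stress factors themselves, had means of 0.09 and -0.03 at pH 6.0, against 0.20 and -0.06 at pH 4.5, and were not called.

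Reserve carbohydrate genes were also less raised at pH 6.0. Of 16 tested genes for trehalose and glycogen, 11 had a called lower effect and 0 a higher one (7 lower with own spread). With arrays scaled to 1 spread 6 were lower and 0 higher. The medians were 0.40 at pH 6.0 and 1.06 at pH 4.5. PGM2, the phosphoglucomutase that links glucose phosphates, had 0.68, 0.87, 1.12 and 0.45 at pH 6.0, against 2.90, 2.40, 2.69 and 2.87 at pH 4.5. GLC3, the glycogen branching enzyme, had 0.69, 0.84, 0.68 and 0.64 at pH 6.0, against 2.16, 2.13, 2.11 and 2.41 at pH 4.5. TPS1, the trehalose-phosphate synthase, had 0.53, 0.42, 0.69 and 0.80 at pH 6.0, against 1.73, 1.74, 1.94 and 1.81 at pH 4.5. All 3 genes rose at both pH values, and in none did the sets overlap. The limma adjusted p of their differences was 0.000265 for PGM2, 0.000105 for GLC3 and 0.000432 for TPS1.

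Genes of glucose phosphorylation also had lower effects at pH 6.0. GLK1, glucokinase, averaged 0.89 ± 0.28 at pH 6.0 and 2.58 ± 0.18 at pH 4.5, and HXK1, hexokinase 1, averaged 0.65 ± 0.43 and 2.26 ± 0.23 (SD, n = 4 each). Of 21 tested glycolysis and fermentation genes, 3 had a called lower and 2 a called higher effect. These shares, 14.3% and 9.52%, were not far from the 9.86% and 7.29% of all tested ORFs. Hexose transport had 7 lower and 0 higher of 15 (3 lower with own spread), among them HXT3, HXT4 and HXT7. HXT2 differed from those: it had -1.30, -0.32, -1.12 and -0.69 at pH 6.0, against -0.20, 0.05, 0.19 and -0.19 at pH 4.5, and its call was not made with own spread (adjusted p = 0.0678). Probes of the near-identical HXT genes may share signal.

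**Figure D2:**
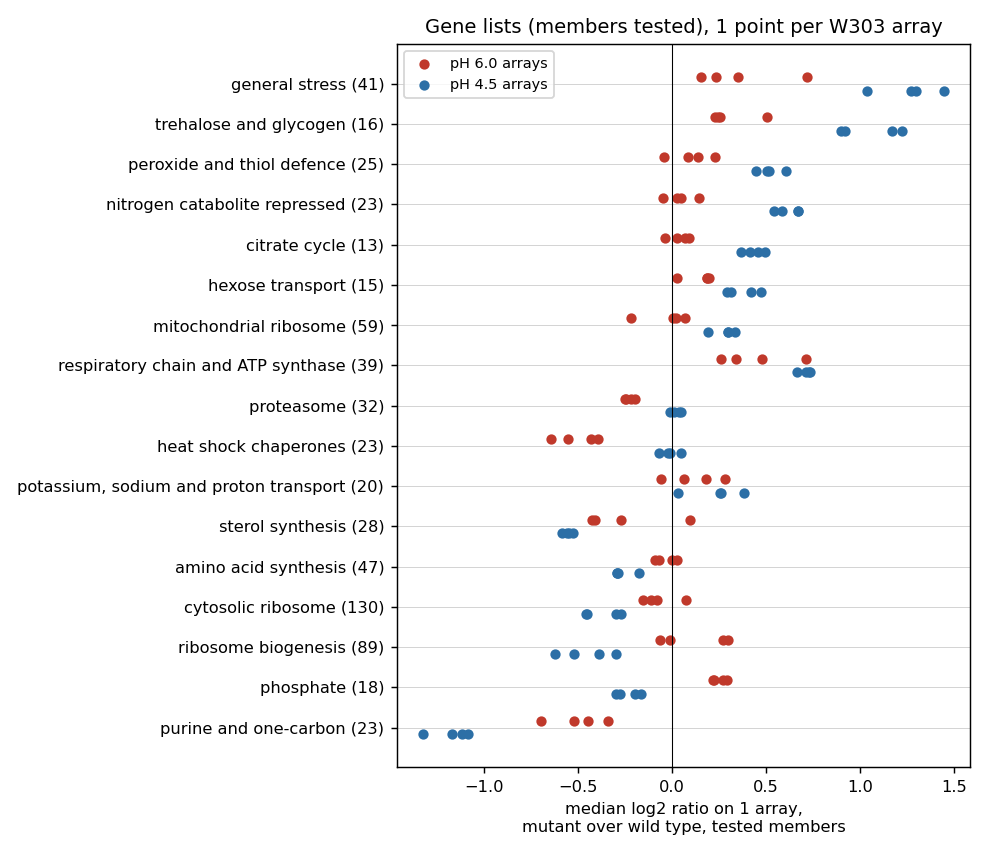
Median log2 ratio of the mutant over the wild type of each gene list on each W303 array, with pH 6.0 arrays above pH 4.5 arrays and the number of tested members in brackets. The general stress medians are 0.16 to 0.72 at pH 6.0 and 1.04 to 1.45 at pH 4.5, while the purine medians are -0.70 to -0.34 and -1.33 to -1.09.

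Of 13 tested citrate cycle genes, 7 had a lower and 1 a higher called effect at pH 6.0 (3 and 1 with own spread). Over all tested ORFs the shares were 9.86% lower and 7.29% higher. Of 17 tested glucose-repressed carbon genes, 4 were called lower and 0 higher by limma (3 lower with own spread), with 1 higher at an unadjusted p below 0.05. LSC2, a subunit of succinyl-CoA ligase, had -0.15, -0.52, 0.02 and -0.51 at pH 6.0, against 0.69, 0.89, 0.98 and 0.96 at pH 4.5. MDH2, the cytosolic malate dehydrogenase of gluconeogenesis, had -0.62, -0.85, -0.60 and -0.58 at pH 6.0, against 1.10, 1.18, 1.41 and 1.52 at pH 4.5. MDH2 thus fell in the mutant at pH 6.0 and rose at pH 4.5, and the sets lay on opposite sides of 0 (difference -1.96, SE 0.13, limma adjusted p = 8.72e-05). CIT2, the peroxisomal citrate synthase that marks the retrograde signal of mitochondria, rose at both, to 1.65 ± 0.06 at pH 6.0 and 2.82 ± 0.06 at pH 4.5 (SD, n = 4 each). Its call was lost with arrays scaled to 1 spread (limma adjusted p = 0.109).

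Of 39 tested genes of the respiratory chain and ATP synthase, 6 had a lower and 2 a higher called effect (2 and 1 with own spread). The shares were 15.4% lower and 5.13% higher, against 9.86% and 7.29% of all tested ORFs. Called or not, 32 of the 39 differences were negative, against 2544 of 4840 over all tested ORFs. The medians were 0.45 at pH 6.0 and 0.70 at pH 4.5. SDH4, a succinate dehydrogenase subunit, averaged 0.61 ± 0.24 at pH 6.0 and 1.79 ± 0.30 at pH 4.5 (SD, n = 4 each). NDE1, the external NADH dehydrogenase, had 0.34, 1.36, 0.32 and 1.43 at pH 6.0, against -0.58, -0.36, -0.24 and -0.60 at pH 4.5. NDI1, the internal one, rose in the mutant at both pH values, with a smaller effect at pH 6.0 (1.02 ± 0.07 at pH 6.0 and 1.69 ± 0.15 at pH 4.5, SD, n = 4 each). With arrays scaled to 1 spread the NDI1 call was lost (limma adjusted p = 0.332). Mitochondrial ribosomal proteins had 12 lower and 0 higher of 59, but 2 lower with own spread, with medians of -0.03 at pH 6.0 and 0.31 at pH 4.5.

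Genes of purine synthesis fell in the mutant at pH 4.5, and their effects were less negative at pH 6.0. Of 23 tested purine and one-carbon genes, 14 had a called higher effect at pH 6.0 and 0 a lower one (10 higher with own spread), against 7.29% of all tested ORFs higher. The median effect was -0.56 at pH 6.0 and -1.14 at pH 4.5. Between arrays with the mutant in Cy5 the median difference was 0.81, and between those in Cy3, with 1 array at pH 4.5, it was 0.36. With a dye term 13 were called higher and 0 lower. With arrays scaled to 1 spread 10 were higher and 0 lower, and the median difference was 0.39 in place of 0.66. In the tests within each set, 8 of the 23 fell at pH 6.0 and 21 at pH 4.5.

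ADE17, for the enzyme of the last steps to IMP, had -0.40, -0.85 and -0.43 on 3 pH 6.0 arrays, against -2.94, -2.26, -2.63 and -2.56 at pH 4.5 (difference 2.04, SE 0.19, limma adjusted p = 0.000492). ADE13, adenylosuccinate lyase, had -0.79, -0.74, -0.73 and -0.74 at pH 6.0, against -2.43, -2.42, -2.14 and -2.41 at pH 4.5. ADE57, listed in the reference table for the bifunctional enzyme of early steps, had -0.65, -0.52, -0.74 and -0.34 at pH 6.0, against -2.28, -1.95, -1.95 and -2.17 at pH 4.5. In all 3 the sets stayed apart, and ADE13 fell at both pH values. ADE2, an auxotrophic marker in some laboratory strains, averaged -1.11 ± 0.03 at pH 6.0 and -2.30 ± 0.26 at pH 4.5 (SD, n = 4 each) and fell at both.

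HPT1, a purine salvage gene for hypoxanthine-guanine phosphoribosyltransferase, had 0.13, 0.26, -0.05 and 0.19 at pH 6.0, against -2.14, -1.89, -2.01 and -2.03 at pH 4.5 (difference 2.15, SE 0.11, limma adjusted p = 3.72e-05). AAH1, adenine deaminase, had 0.02, 0.10, 0.53 and -0.14 at pH 6.0, against -1.42, -1.01, -1.33 and -1.36 at pH 4.5. Neither was called at pH 6.0, and both fell at pH 4.5. MTD1, a dehydrogenase of one-carbon metabolism, averaged -0.33 ± 0.30 at pH 6.0 and -1.83 ± 0.18 at pH 4.5 (SD, n = 4 each). The glycine and one-carbon genes GCV2, GCV3 and SHM2 fell at both with no called difference, and the interval was -0.46 to 0.10 for GCV2, 0.05 to 0.53 for GCV3 and 0.02 to 0.59 for SHM2.

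**Figure D3:**
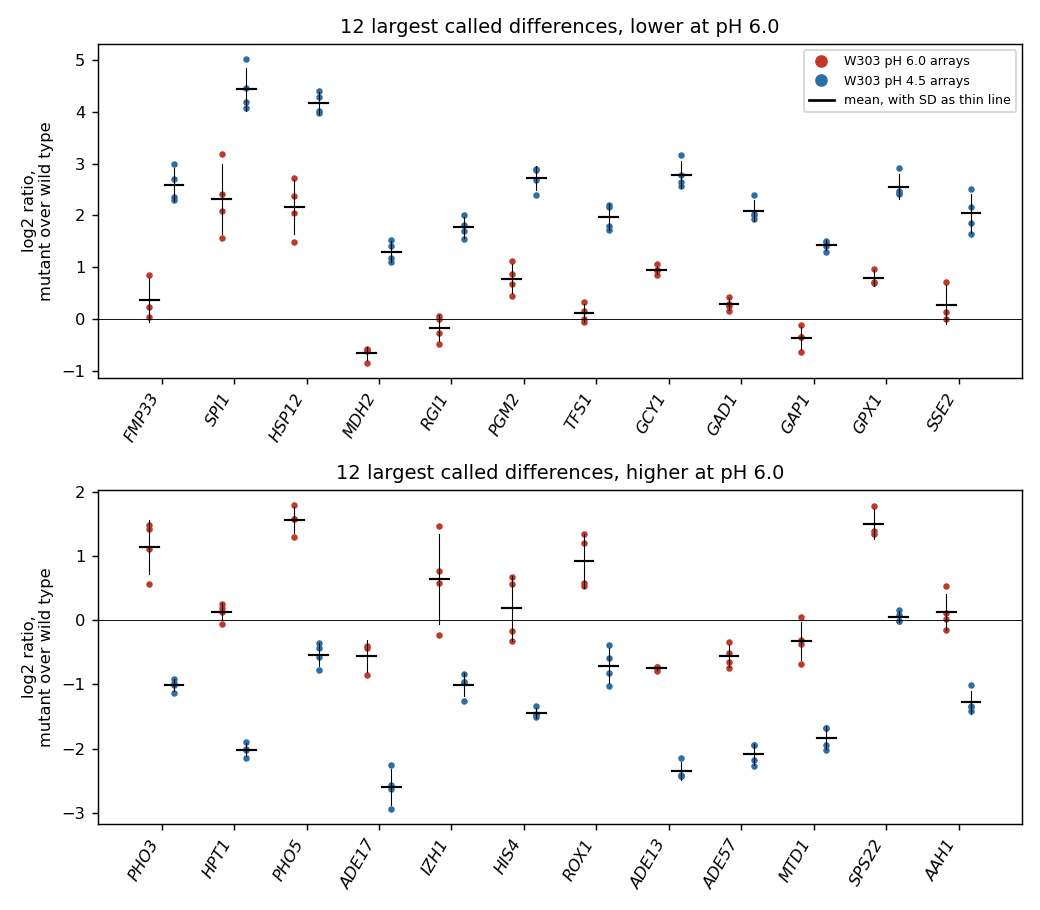
Log2 ratio of the mutant over the wild type on each W303 array for the 12 largest called lower and 12 largest called higher differences, with pH 6.0 left of pH 4.5, bars at means and thin lines of 1 SD. The pH 6.0 and pH 4.5 points do not overlap for any of the 24 genes, and HPT1 lies near 0.13 at pH 6.0 and near -2.02 at pH 4.5.

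Ribosome assembly genes had higher effects at pH 6.0. Of 89 tested ribosome biogenesis genes, 43 were called higher and 2 lower (23 and 1 with own spread), against 7.29% and 9.86% of all tested ORFs. The medians were 0.12 at pH 6.0 and -0.46 at pH 4.5. Array medians ran from -0.07 to 0.30 at pH 6.0 and from -0.62 to -0.30 at pH 4.5. The median difference was 0.79 between arrays with the mutant in Cy5 and 0.23 between those in Cy3, where pH 4.5 had 1 array. With a dye term 42 were called higher and 2 lower, and with arrays scaled to 1 spread 34 higher and 1 lower. ENP1, a factor of small subunit maturation, had 0.12, 0.31, 0.96 and 0.38 at pH 6.0, against -0.67, -0.40, -0.65 and -0.61 at pH 4.5. NOG2, a GTPase of large subunit assembly, had 0.58, 1.02, -0.07 and 0.80 at pH 6.0, against -0.82, -0.30, -0.49 and -0.49 at pH 4.5. Neither set overlapped the other for these genes. NOP1, fibrillarin, was an exception: it rose at both, to 0.80 ± 0.08 at pH 6.0 and 2.13 ± 0.16 at pH 4.5 (SD, n = 4 each).

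Genes for structural proteins of the cytosolic ribosome had smaller differences. Of 130 tested genes, 24 were called higher and 0 lower, but 2 higher with own spread and 34 without replicate 3 at pH 6.0. Their medians were -0.08 at pH 6.0 and -0.36 at pH 4.5. RPL7B had 0.27, 0.28, 0.06 and 0.08 at pH 6.0, against -0.53, -0.36, -0.56 and -0.51 at pH 4.5. Probes of paired ribosomal protein genes may share signal.

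The acid phosphatase genes PHO5 and PHO3 had opposite signs at the 2 pH values. PHO5, the main secreted acid phosphatase, had 1.57, 1.57, 1.29 and 1.79 at pH 6.0, against -0.36, -0.78, -0.58 and -0.43 at pH 4.5 (difference 2.09, SE 0.14, limma adjusted p = 8.72e-05). PHO3, the constitutive phosphatase beside it, had 1.10, 1.49, 0.56 and 1.42 at pH 6.0, against -0.92, -1.004, -1.14 and -0.98 at pH 4.5 (difference 2.15, SE 0.19, limma adjusted p = 0.000309). Both genes rose in the mutant at pH 6.0 and fell at pH 4.5. PHO3 and PHO5 are similar in sequence, as are PHO11 and PHO12, so their values are not independent.

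Within the phosphate list 6 of 18 tested genes were called higher and 0 lower (5 higher with own spread), against 7.29% of all tested ORFs higher. The medians were 0.26 at pH 6.0 and -0.22 at pH 4.5. PHO11 averaged 0.59 ± 0.46 at pH 6.0 and -0.81 ± 0.09 at pH 4.5, and PHO12 0.50 ± 0.31 and -0.72 ± 0.22 (SD, n = 4 each). PHO4, the activator of the pathway, averaged 0.02 ± 0.19 at pH 6.0 and -0.66 ± 0.19 at pH 4.5, and VTC1, a polyphosphate synthesis subunit, 0.39 ± 0.15 and -0.13 ± 0.09 (SD, n = 4 each). The VTC1 call was not made with own spread (adjusted p = 0.0601). PHO84, the high-affinity transporter, had 0.64, 1.08, -0.01 and 1.52 at pH 6.0 and no value on any pH 4.5 array, so it was not tested.

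Chaperone genes had lower mutant effects at pH 6.0 in a pair of patterns. Of 23 tested, 15 had a called lower effect and 0 a higher one (13 with own spread), against 9.86% of all tested ORFs lower. In all, 5 of the 23 also belong to the stress list. In 4 of the 15, HSP104, HSP42, HSP78 and SSE2, the effect was over 0.5 at pH 4.5. In 10 the mean was within 0.5 of 0 at pH 4.5 and under -0.5 at pH 6.0. The remaining called gene was SSC1. In the tests of each set alone, 10 chaperone genes fell at pH 6.0, against 1.45% of all tested ORFs lower there.

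HSC82, 1 of the 2 genes for cytosolic Hsp90, had -1.41, -1.21, -1.03 and -1.17 at pH 6.0, against -0.49, 0.00, 0.01 and -0.17 at pH 4.5 (difference -1.04, SE 0.14, limma adjusted p = 0.0021). SSA2, a cytosolic Hsp70 gene, had -1.54, -1.43, -0.99 and -1.33 at pH 6.0, against -0.28, -0.20, 0.07 and -0.09 at pH 4.5. STI1, the bridge between Hsp70 and Hsp90, had -1.28, -1.05, -1.03 and -0.80 at pH 6.0, against -0.38, -0.13, 0.17 and -0.08 at pH 4.5. All 3 fell at pH 6.0 and were not called at pH 4.5, and the sets did not overlap. Probes of HSC82 and HSP82, and of SSA1 and SSA2, are nearly identical in sequence and may share signal.

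MDJ1, the partner of mitochondrial Hsp70, had -0.88, -0.79, -0.47 and -0.74 at pH 6.0, against 0.43, 0.35, 0.51 and 0.54 at pH 4.5, falling at pH 6.0 and rising at pH 4.5. KAR2, the Hsp70 of the endoplasmic reticulum, fell at both, to -1.21 ± 0.17 at pH 6.0 and -0.57 ± 0.10 at pH 4.5 (SD, n = 4 each). CPR1, the cyclophilin that binds cyclosporin, had -0.97, -1.02, -0.84 and -0.56 at pH 6.0, against 0.51, -0.06, 0.69 and 0.71 at pH 4.5. It overlaps an ORF on the other strand, so its signal may be shared. MDJ1, KAR2 and CPR1 were picked after their values were seen. BTN2, a protein sorting factor, had -2.32, -1.93, -0.81 and -2.04 at pH 6.0, against -0.60, -0.27, -0.46 and -0.66 at pH 4.5, and was not called with own spread (adjusted p = 0.0506).

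**Figure D4:**
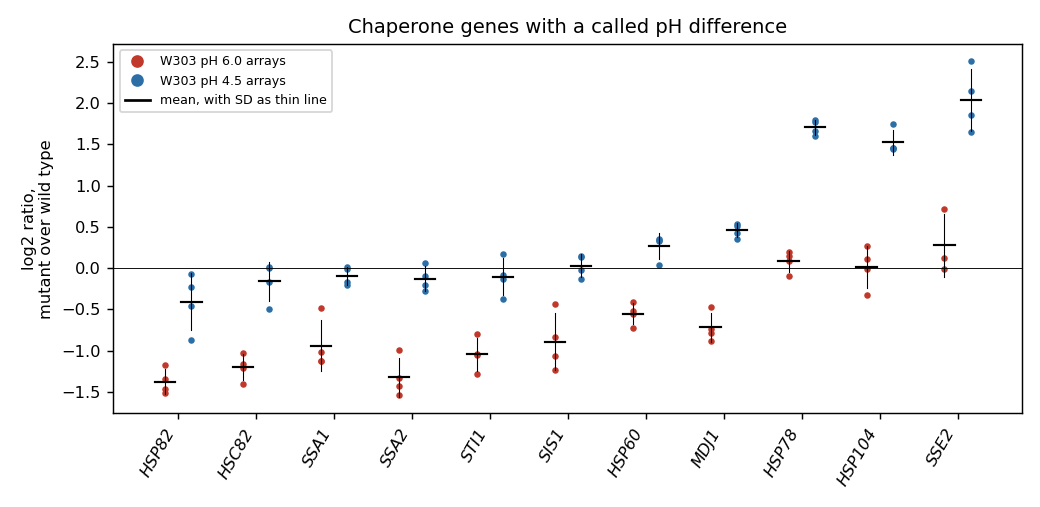
Log2 ratio of the mutant over the wild type on each W303 array for 11 chaperone genes with a called difference, with pH 6.0 left of pH 4.5, bars at means and thin lines of 1 SD. HSP82, HSC82, SSA1, SSA2, STI1 and SIS1 lie below 0 on every pH 6.0 array, while HSP78, HSP104 and SSE2 lie above 1.4 on every pH 4.5 array.

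Of 47 tested amino acid synthesis genes, 9 were called higher at pH 6.0 and 0 lower (4 higher with own spread), 4 of them histidine genes. HIS4, for 3 steps of histidine synthesis, had 0.56, -0.17, 0.68 and -0.32 at pH 6.0, against -1.505, -1.48, -1.34 and -1.46 at pH 4.5. LEU9, of leucine synthesis, had -0.49, -0.44, -0.43 and -0.41 at pH 6.0, against -1.35, -1.22, -1.23 and -1.25 at pH 4.5, and the sets did not overlap (difference 0.82, SE 0.09, limma adjusted p = 0.000743). LEU1, of the same pathway, fell at both and was not called for the difference, at -2.34 ± 0.29 at pH 6.0 and -2.17 ± 0.25 at pH 4.5 (SD, n = 4 each), with an interval of -0.56 to 0.24. BAT1, the mitochondrial branched-chain aminotransferase, likewise had an interval of -0.10 to 0.41. LEU1 and BAT1 were picked with their values in view. No difference between pathways was tested.

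In the sulphur and methionine list 6 of 29 tested genes had a called lower effect and 1 a higher one. The medians were 0.29 at pH 6.0 and 0.32 at pH 4.5. Array medians ran from -0.35 to 0.80 at pH 6.0 and from 0.28 to 0.49 at pH 4.5, so the sets overlapped. With arrays scaled to 1 spread 3 were lower and 0 higher, and the median difference was 0.04 in place of -0.15. MET5, a sulphite reductase subunit, had 0.49, 0.50, 0.78 and 1.12 at pH 6.0, against 2.64, 2.44, 2.23 and 2.14 at pH 4.5. MET3, ATP sulphurylase, averaged 0.92 ± 0.49 at pH 6.0 and 1.99 ± 0.17 at pH 4.5, and MET14, the next enzyme, 0.96 ± 0.33 and 2.01 ± 0.26 (SD, n = 4 each). With arrays scaled to 1 spread the calls of MET3 and MET14 were lost (limma adjusted p = 0.255 and 0.118). MET17, an auxotrophic marker and sulphhydrylase gene, averaged 0.59 ± 0.20 at pH 6.0 and 1.90 ± 0.28 at pH 4.5 (SD, n = 4 each).

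Nitrogen-repressed genes had lower effects at pH 6.0 in 8 of 23 and higher in 0 (4 lower with own spread), with medians of 0.06 at pH 6.0 and 0.61 at pH 4.5. GAP1, the general amino acid permease, had -0.34, -0.36, -0.64 and -0.12 at pH 6.0, against 1.51, 1.30, 1.49 and 1.41 at pH 4.5 (difference -1.79, SE 0.13, limma adjusted p = 9.13e-05). It rose at pH 4.5 and was not called at pH 6.0. BAP2, a branched-chain permease, fell at both, at -1.36 ± 0.46 at pH 6.0 and -2.39 ± 0.10 at pH 4.5 (SD, n = 4 each), and lost its call with scaling (limma adjusted p = 0.488). PUT1, proline oxidase, rose at both, at 1.81 ± 0.18 on 3 pH 6.0 arrays and 1.48 ± 0.11 on 4 pH 4.5 arrays (SD), with no called difference.

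Ion transport lies closest to the known role of the kinases. Of 20 tested potassium, sodium and proton transport genes, 1 was called higher and 1 lower, and with own spread 0 were called. That is 5% each way, beside 7.29% higher and 9.86% lower of all tested ORFs. With 1 gene of 20 each way, these shares cannot be told apart. TRK1, the main potassium transporter, had 0.11, 0.29, 0.05 and 0.65 at pH 6.0, against 0.40, 0.28, 0.12 and 0.13 at pH 4.5, and the sets overlapped (interval of the difference -0.29 to 0.38). PMA1, the proton pump, had 0.20, 0.59, 0.41 and 1.02 at pH 6.0, against 0.06, 0.51, 0.47 and 0.31 at pH 4.5 (interval -0.20 to 0.63). The interval for TRK2 was -0.68 to 0.40. PTK2, a kinase that activates Pma1, had -0.01, 0.36, -0.68 and 0.46 at pH 6.0, against 0.72, 0.89, 1.15 and 1.05 at pH 4.5, and was not called with own spread (adjusted p = 0.0677). ENA2, a sodium pump gene nearly identical to its neighbours, had -0.14, -0.00 and 0.09 at pH 6.0, against -0.54, -0.71, -0.69 and -0.67 at pH 4.5, and was not called with own spread either (adjusted p = 0.0652).

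The vacuolar proton ATPase had 1 lower of 17, and calcineurin-linked genes had 3 lower and 1 higher of 17, none of them called with own spread. The calcineurin shares were 17.6% lower and 5.88% higher, against 9.86% and 7.29% of all tested ORFs. The Rim101 pathway of the alkaline response had 0 of 6 called by limma, and 0 at an unadjusted p below 0.05. Iron uptake had 0 of 20 called by limma, 3 higher and 2 lower at an unadjusted p below 0.05, and 4 higher and 1 lower of 17 without replicate 3 at pH 6.0. Sterol synthesis had 6 higher and 0 lower of 28 (3 higher with own spread, 5 with a dye term). Its median difference was 0.47 between arrays with the mutant in Cy5 but 0.06 between those in Cy3, where pH 4.5 had 1 array. ERG25, a demethylation step enzyme, had -0.06, -0.09, -0.94 and 0.12 at pH 6.0, against -1.24, -1.30, -1.20 and -1.35 at pH 4.5. Among peroxide and thiol defence genes 9 of 25 had a called lower effect and 1 a higher one (5 lower with own spread). AHP1, a thiol peroxidase, had 0.40, 0.45, 0.50 and 0.43 at pH 6.0, against 1.73, 1.53, 2.05 and 1.82 at pH 4.5.

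The auxotrophic markers HIS3, LEU2, URA3, TRP1, LYS2 and CAN1 had no called difference, while ADE2 and MET17 did. HIS3 averaged 2.33 ± 0.44 at pH 6.0 and 2.00 ± 0.12 at pH 4.5 (SD, n = 4 each) and rose at both. URA3 had -1.04, -1.46, -0.02 and -1.16 at pH 6.0, against 0.01, -0.31, -0.09 and 0.20 at pH 4.5, and the sets overlapped (difference -0.87, limma adjusted p = 0.0626). No source used here says which markers each strain carries.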

How the data were processed

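RNA of hal4hal5 and wild-type cultures was compared on two-colour arrays, and 8 W303 arrays were used here. The authors deposited 1 value per ORF and array, read here as a log2 ratio. The base, normalisation, filters and scanner intensities are not given in the sources used here, and how far each signal lay above background is not known. Signs were turned where the mutant was in Cy3, per the labels. Of 5994 ORFs, 5496 matched RefSeq locus tags and 5020 a symbol.

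The pH difference was fitted with limma 3.58.1 in R 4.3.3 (2 group means, empirical Bayes, two-sided) for ORFs with at least 3 values per pH. Standard errors are moderated. Each pH was also fitted alone. The number of arrays, 4 per pH, limits the precision.

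The test was tested on simulated data with the arrays' missing values. It passed, at a limit somewhat above the nominal error rate, when both pH values had 1 spread. It made too many calls when the spreads were unequal as they are here. A test with a moderated variance per pH and the lower of the 2 degrees of freedom was therefore added. It passed on the same simulated data, also at a limit above the nominal rate. Those data were drawn with a moderated spread per pH, as that test assumes, so they favour it. A first form of the added test, with other degrees of freedom, made too many false calls on simulated data and was not applied to the arrays.

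Named genes were the deleted genes, markers, the 12 largest called differences each way, the 8 largest of opposite sign and the 8 largest that were larger at pH 6.0, up to 4 called members per list, and TRK1, TRK2, ENA1 and PMA1. Others were picked after their values were seen. Members and the 36 lists were chosen with earlier results of these data known. Alternatives were a fit of all 12 arrays, a dye term, array weights, other minimum values, centring, scaling, a replicate block, robust moderation, a fold minimum and each array left out.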

Additional observations from a re-analysis of the deposited data

Results flagged for a closer look

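The mutant effect differed between pH 6.0 and pH 4.5 in W303 for 830 ORFs by a test of the difference itself.

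Among 188 sets of 4 arrays examined for the genes printed here, 11 held 1 array far from the other 3, and chance alone marks about 1 set in 20. At pH 6.0 these were MDH2 at -0.85 and YGP1 at 1.58 on replicate 2, MET3 at 0.19, NOP1 at 0.93 and SSC1 at -0.035 on replicate 3, and MSN2 at 0.23 on replicate 4. At pH 4.5 they were HAL5 at 0.42 on replicate 1, ADE13 at -2.14 and VTC1 at -0.27 on replicate 3, and GLC3 at 2.41 and HSP104 at 1.75 on replicate 4.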

How the results depend on the processing

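The count of 830 called ORFs (353 higher, 477 lower at pH 6.0) depended on how spread was treated. With each pH given its own spread, chosen after seeing the data, it was 313 (112 higher, 201 lower). With arrays scaled to 1 spread it was 426 (192 and 234), and with array weights 1414 (657 and 757). Calls of at least 1.5-fold numbered 520, of which 194 were higher. Leaving out 1 array gave 391 to 1304 in all, 138 to 643 higher and 253 to 661 lower. The count was 500 without replicate 1 and 1304 without replicate 3 at pH 6.0, and 481, 484 and 391 without replicates 1, 3 and 4 at pH 4.5. The cause of these shifts was not tested, apart from the fewer arrays. A dye term gave 709, a fit of all 12 arrays 1139, centring 843 and robust moderation 821. None of the named genes with a called difference reversed sign under any of these settings, while 42 of them lost the call with own spread and 40 with scaling. Of the 24 largest differences, 24 were called with own spread, 24 with a dye term and 22 with scaling, where HSP12 and SPI1 were not.

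Replicate numbers are shared between the sets, but same-numbered arrays did not deviate together, with residual correlations of 0.24, 0.11, -0.15 and -0.14 over 3847 ORFs. With the replicate block 558 ORFs were called, 220 higher and 338 lower.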

Other observations

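Some genes with very large effects at pH 4.5 could not be tested, because fewer than 3 pH 6.0 arrays measured them. There were 15 ORFs with a mean of at least 2 in size over 3 or more pH 4.5 arrays and too few pH 6.0 values, and all 15 were positive. HSP26, a small heat shock protein gene, had 0.32 on the 1 pH 6.0 array that measured it, against 4.71, 3.89, 4.61 and 5.02 at pH 4.5. SIP18, a desiccation tolerance gene, had no pH 6.0 value and 4.18, 2.28, 3.64 and 3.40 at pH 4.5. NQM1, a transaldolase, had 1.46 on 1 pH 6.0 array, against 3.55, 2.91, 3.13 and 3.21 at pH 4.5. Why these spots lack values at pH 6.0 is not known. These genes were chosen after their values were seen.

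CWP2, a cell wall mannoprotein gene, had 0.17, 0.08, 0.30 and 0.53 at pH 6.0, against 1.99, 0.86, 1.68 and 1.72 at pH 4.5. TIR1, a cold-shock wall protein gene, had -1.04, -1.19, -0.66 and -0.09 at pH 6.0, against 0.28, 0.04, 0.48 and 0.76 at pH 4.5. The sets did not overlap for either gene. Of 29 tested cell wall genes 5 were called lower and 1 higher (3 lower with own spread). The shares were 17.2% and 3.45%, against 9.86% lower and 7.29% higher over all tested ORFs. Of the mating type lists, 1 of 7 tested haploid-cell markers, 1 of 5 a-cell markers and 0 of 1 alpha-cell markers were called by limma, with 3, 3 and 0 at an unadjusted p below 0.05. FUS1, a cell fusion gene of mating, had -0.50, -0.23, -0.59 and -0.66 at pH 6.0, against 0.31, 0.14, 0.38 and 0.30 at pH 4.5 (difference -0.78, limma adjusted p = 0.00367). AGA2, the agglutinin subunit of a cells, had 0.01, -0.62 and -1.12 on 3 pH 6.0 arrays, against 1.34, 0.89, 0.81 and 0.93 at pH 4.5. BAR1 and MFA2, further genes of a cells, were not called (limma adjusted p = 0.0614 and 0.0548).

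SPS22, a sporulation gene, was among the few with a larger effect at pH 6.0. It had 1.35, 1.77 and 1.39 on 3 pH 6.0 arrays, against 0.08, 0.16, -0.02 and -0.02 at pH 4.5 (difference 1.45, SE 0.14, limma adjusted p = 0.000622). ROX1, the repressor of hypoxic genes, had 1.34, 0.53, 0.58 and 1.21 at pH 6.0, against -1.02, -0.60, -0.39 and -0.83 at pH 4.5. IZH1, a membrane protein gene of zinc metabolism that overlaps another ORF, had 0.76, -0.23, 0.58 and 1.47 at pH 6.0, against -0.84, -1.26, -0.96 and -0.97 at pH 4.5. Proteasome genes had 8 of 32 called lower and 0 higher by limma (15 and 1 at an unadjusted p below 0.05), but 0 with own spread, and array medians of -0.25 to -0.20 at pH 6.0 and -0.01 to 0.05 at pH 4.5.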
